A study of Mus musculus with 2 samples.

Results

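Pericyte nuclei were examined in mesenteric perivascular fat, the adipose tissue that surrounds the arteries of the gut. They were chosen by their counts of unique molecular identifiers (UMIs), each of which marks 1 captured RNA molecule. A nucleus had to hold at least 500 UMIs with under 5% from mitochondrial genes. Abcc9, Notch3, Pdgfrb and Rgs5 together had to reach 4 UMIs over at least 2 of the 4 genes, and 8 per 10,000 UMIs. Myh11 and Acta2 had to hold fewer UMIs than those 4 genes, and Flt1, Pdgfra and Mrc1 at most 2 UMIs in sum. These criteria were met by 128 of the 19480 nuclei that passed the UMI and mitochondrial filters, of 20146 barcodes in all. There were 48 pericyte nuclei in the library labelled Prdm16 cKO and 80 in the flox control library.

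Both libraries came from 11-week-old mice with floxed Prdm16, which encodes a transcriptional regulator of the thermogenic fat programme. The flox control library is titled wt, although its genotype label is Prdm16flox. The mice of the cKO library also carried a Cre transgene, written AdopiQCre+ in the sample label and AdipoQCre+ in the series' design text, in which the adiponectin promoter drives Cre recombinase in adipocytes, so pericytes are not the cells in which deletion is intended. The sample labels name mesenteric fat and nuclear RNA, which were followed here, whereas the series title names thoracic and abdominal fat and total RNA. Each genotype had 1 library, and the number of animals behind a library is not given in the sources used here. Every difference between genotypes therefore compares 2 libraries without a replicate check. All intervals are 95% intervals that cover counting error only, and counts are scaled to counts per 1000000 UMIs of the nuclei class (CPM). A count of 0 allows up to 3 UMIs, which is 9.75 CPM in cKO and 6.90 CPM in control pericyte nuclei, and 24.6 and 6.30 CPM in smooth muscle nuclei.

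Pericytes are mural cells embedded in the basement membrane of capillaries and small venules, in contact with endothelial cells. They share the Notch3 and PDGF receptor beta pathways with arterial smooth muscle, through which endothelial ligands recruit and maintain them. They differ from smooth muscle in holding little of the contractile apparatus. Their ATP-sensitive potassium channel, built from the pore Kir6.1 (Kcnj8) and the sulfonylurea receptor SUR2 (Abcc9), couples metabolism to membrane potential.

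The cKO library held 8086 barcodes with 70895490 UMIs and the control library 12060 barcodes with 108987031 UMIs. The pericyte nuclei gave 307608 UMIs in the cKO library and 434967 in the control, with medians of 5141 and 4307 UMIs and of 2393 and 2168 genes per nucleus. Prdm16 itself, counted over the whole gene, had 23.3 CPM in cKO adipocyte nuclei and 18.9 CPM in control adipocyte nuclei. The floxed exon is not given in the sources used here and the reads come from transcript 3' ends, so this count does not check the genotype label. Barcode sequences shared by the libraries numbered 28, and none was a pericyte nucleus in both. In pericyte nuclei Prdm16 had 1 UMI in the cKO library and 11 UMIs in the control, or 3.25 CPM (0.0823 to 18.1) and 25.3 CPM (12.6 to 45.2), a log2 ratio of -2.96 (-8.39 to -0.18). Its levels in smooth muscle nuclei were 417 CPM in the cKO library and 298 CPM in the control.

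The share of pericyte nuclei was 0.610% (0.450 to 0.808%, exact binomial) in the cKO library and 0.689% (0.547 to 0.857%) in the control. The intervals overlap, and a share of nuclei can also be set by dissection and nucleus recovery. Of the nuclei past both filters, 117 cKO and 203 control nuclei had 4 or more UMIs of the 4 mural genes. Requiring 2 of the genes left 95 and 161, the density of 8 per 10,000 left 62 and 111, and the smooth muscle criterion left 58 and 96. The lowest member stood at 8.59 per 10,000 in the cKO library and 8.08 in the control. The highest nucleus that failed only on density stood at 7.12 in the cKO library and 7.35 in the control. Nuclei that failed only by holding 3 UMIs of Flt1, Pdgfra and Mrc1 numbered 5 in the cKO library and 3 in the control.

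The 4 genes of the rule were spread over most members, as the rule demands. Abcc9 was detected in 42 of 48 cKO members and 72 of 80 control members, Notch3 in 42 and 73, and Pdgfrb in 39 and 67. Rgs5, a regulator of G-protein signalling and a classic pericyte transcript, was detected in 27 and 36 members. The median member held 13 UMIs of the 4 genes in the cKO library and 14 in the control. Myh11 and Acta2, the contractile genes on the other side of the rule, were at 0 UMIs in 37 cKO and 60 control members. Members with 3 or more UMIs of these contractile genes numbered 4 in the cKO library and 5 in the control, with at most 11 and 16 UMIs. The rule therefore keeps some nuclei with contractile transcripts.

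**Figure D1:**
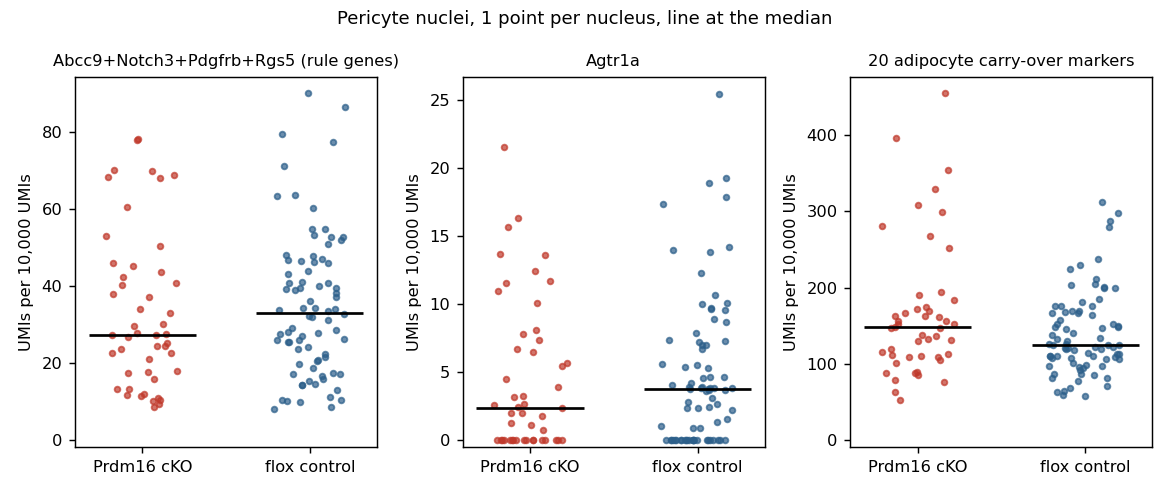
UMIs per 10,000 UMIs in each pericyte nucleus for the 4 genes of the rule, for Agtr1a and for 20 adipocyte markers, with Prdm16 cKO left and flox control right. The line is the median; the rule genes have medians of 27.4 and 33.0, and nuclei without an Agtr1a UMI lie at 0 in both libraries.

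Markers outside the rule bore on the label. Of 25 further pericyte markers, 13 had 20 or more UMIs in each library, and 7 of these were at least 4-fold higher in pericyte nuclei than in all other nuclei in both libraries. Over all 3170 genes with that depth, 115 were 4-fold higher, which is 3.63%. Against smooth muscle nuclei, 3 of 16 measured markers of the same list were 4-fold higher in both libraries and none was 4-fold lower. Over all 4172 genes measured in that comparison, 1.65% were 4-fold higher and 2.18% 4-fold lower. The list of markers was chosen with earlier results of these data known, so its count is a description. Kcnj8 had 20 UMIs in the cKO members and 25 in the control members, or 65.0 and 57.5 CPM, against 0 and 2.10 CPM in smooth muscle nuclei. Higd1b, a small mitochondrial protein gene used as a pericyte marker in other tissues, had 0 UMIs in the cKO members and 2 in the control members. Cspg4, which encodes the NG2 proteoglycan, had 78.0 and 71.3 CPM in pericyte nuclei and 196 and 141 CPM in smooth muscle nuclei, so its level was below that of smooth muscle nuclei in both libraries.

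Among the 25 genes that stood highest over all other nuclei were several that encode ion channels or their partners. Stac, an adaptor of voltage-gated calcium channels, had 218 CPM in cKO and 354 CPM in control members, log2 ratios over all other nuclei of 7.43 and 7.29. In smooth muscle nuclei Stac had 98.2 and 94.4 CPM, and its log2 ratios over that class were only 1.15 and 1.91. Trpc6, a diacylglycerol-gated cation channel, had 426 and 379 CPM, against 131 and 73.5 CPM in smooth muscle nuclei. Cacna1c, the pore of the L-type calcium channel, reached 2055 and 2607 CPM in pericyte nuclei, below the 3012 and 4152 CPM of smooth muscle nuclei. Kcnb2, a delayed-rectifier potassium channel, had 78.0 CPM in cKO members and 177 CPM in control members, a log2 ratio of cKO over control of -1.18 (-1.91 to -0.50). Stac had a ratio of -0.70 (-1.14 to -0.28), whereas that of Trpc6, at 0.17 (-0.18 to 0.51), had an interval that includes 0. These 25 leading genes were picked by their level over all other nuclei, so that ratio describes them and is not tested.

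Other leading genes encode junction, surface or secreted proteins. Cdh2, the N-cadherin of pericyte and endothelial contacts, had 319 and 469 CPM in pericyte nuclei and 0 and 6.30 CPM in smooth muscle nuclei. Lin7a, a scaffold protein of cell junctions, had 475 and 428 CPM and no UMI in smooth muscle nuclei of either library. Sema5b, a semaphorin, had 97.5 and 122 CPM, and Adgrl3, an adhesion receptor of the latrophilin family, 468 and 653 CPM. Il34, a ligand of the macrophage colony-stimulating factor receptor, had 611 and 614 CPM, against 90.0 and 50.4 CPM in smooth muscle nuclei.

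Subunit genes of the nitric oxide receptor were also among the 25. Soluble guanylate cyclase, which makes cyclic GMP on binding nitric oxide, is a dimer of an alpha and a beta subunit. Its beta subunit gene Gucy1b1 had 338 CPM in cKO and 239 CPM in control members, and Gucy1a2 had 780.2 and 710.4 CPM. Gucy1a1, another alpha subunit gene, had 397 and 363 CPM. Of the list of cyclic nucleotide genes, 7 of the 19 with sufficient depth were 4-fold higher than all other nuclei in both libraries, against 3.63% of all genes. Against smooth muscle nuclei, 1 of 22 was 4-fold higher and 2 were 4-fold lower in both libraries, against 1.65% and 2.18% of all genes.

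Members varied in how many leading genes they held. Over 7 of these genes (Stac, Trpc6, Fhl5, Kcnj8, Sema5b, Lin7a and Agtr1a), a set chosen after values had been seen, 32 of 48 cKO members and 55 of 80 control members held UMIs of 3 or more. None of the 7 was detected in 6 cKO members and 8 control members. Of these, 4 in the cKO library and 6 in the control held markers of another cell type at 10 or more UMIs and 30 or more per 10,000.

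**Figure D2:**
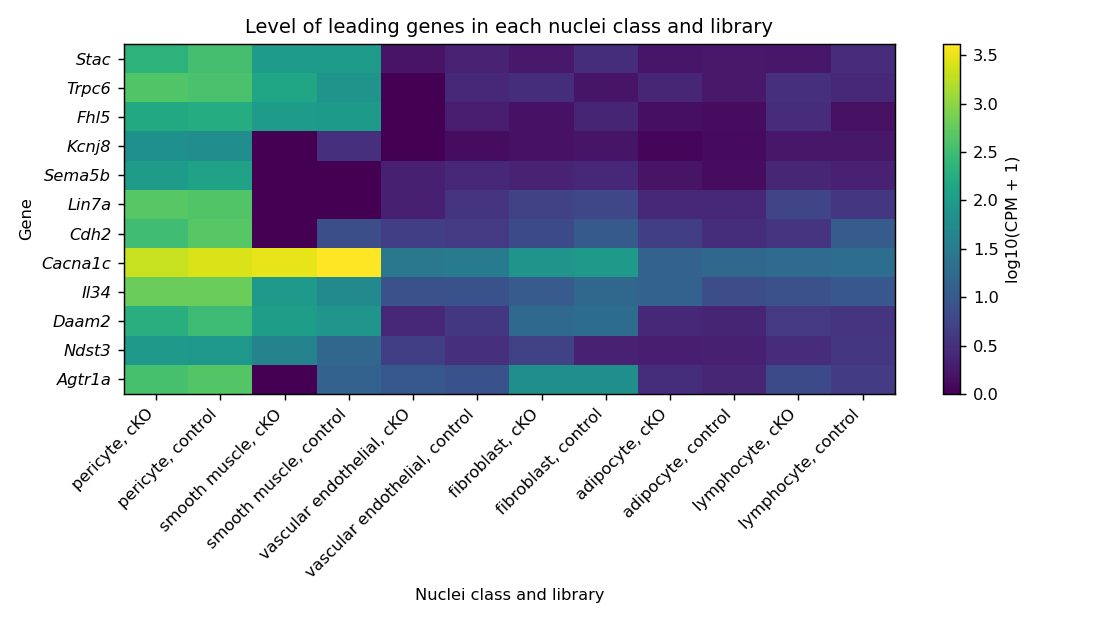
Level, as log10(CPM + 1), of leading genes and Agtr1a in 6 nuclei classes, with the Prdm16 cKO library left of the flox control library in each class. Kcnj8, Sema5b and Lin7a are bright in both pericyte columns and near 0 in both smooth muscle columns, whereas Cacna1c is bright in both mural classes.

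Agtr1a, the angiotensin II type 1a receptor gene (GRCm38 chromosome 13, 30336441 to 30382867, plus strand), is a pericyte marker that the rule did not use. It had 114 UMIs in cKO members and 195 UMIs in control members, or 371 CPM (306 to 445) and 448 CPM (388 to 516). The log2 ratio of cKO over control was -0.27 (-0.62 to 0.07), an interval that includes 0. Without the 8 cKO and 13 control members that hold markers of another cell type the ratio was -0.45 (-0.82 to -0.08), and this setting was added after the data had been seen. Its level was next highest in fibroblast nuclei, with 63 CPM in the cKO library and 62 CPM in the control. Smooth muscle nuclei held 0 and 6 UMIs of Agtr1a. Agtr1b, its paralog, stood in smooth muscle nuclei at 246 CPM in the cKO library and 120 CPM in the control, against 0 and 2 UMIs in pericyte nuclei. Reads shared by the paralogs could be split between them, and how the counting treated such reads is not given in the sources used here.

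Members differed in Agtr1a. A UMI was seen in 31 of 48 cKO members and 56 of 80 control members. In the cKO library 20 members held 3 or more UMIs and the highest held 10. In the control library 29 held 3 or more and the highest held 21. Thinned to 1000 UMIs each, which left out 2 cKO nuclei and no control nucleus, 14 of 46 cKO members and 33 of 80 control members kept a UMI. After the same thinning, 36 of 639 cKO and 34 of 783 control fibroblast nuclei kept a UMI. In smooth muscle nuclei 0 of 22 and 1 of 55 did, and in lymphocyte nuclei 1 of 420 and 4 of 813. Before thinning the shares were 64.6% of cKO and 70.0% of control pericyte nuclei. They were 23.9% and 25.2% of fibroblast nuclei, whose median depths were 5309 and 5697 UMIs. Of lymphocyte nuclei they were 3.55% and 1.60%, at median depths of 4027 and 3875 UMIs.

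The genes closest to Agtr1a in pattern were found by Pearson correlation of log2(CPM + 1) over 12 sums, 6 classes in each of 2 libraries. The points share libraries and carry-over, so the coefficients are descriptive. A coefficient does not give the size of the difference between classes. The highest was Asap1 at 0.97, an ARF GTPase-activating protein gene, followed by Spred1 at 0.96, an inhibitor of RAS signalling. Asap1 had 787 CPM in cKO and 851 CPM in control pericyte nuclei, against 704 and 729 CPM in fibroblast nuclei. Spred1 had 263 and 262 CPM, against 191 and 209 CPM in fibroblast nuclei. Fap, the fibroblast activation protein gene, reached 0.91 and had 231 CPM in cKO and 166 CPM in control pericyte nuclei, close to its 223 and 203 CPM in fibroblast nuclei.

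Promoters were examined because these genes stood high together in the same nuclei. RefSeq promoter windows of GRCm38.p6 were searched for 18 of the 25 leading genes, 31 windows in all. Each window held the 250 bases before an annotated start, and both strands were searched. The remaining leading genes, Cdh2 among them, were not searched, so the counts do not cover them. The searches were for TGGGAA, the core bound by the Notch effector RBPJ, for CATTCC, bound by TEAD factors, and for the CArG box of serum response factor. TGGGAA was found in 8 of the 31 windows, against 21.6% of 32851 windows genome-wide. CATTCC was found in 1, against 12.6%, and the CArG box in 1, against 1.47%. Several windows belong to 1 gene and are not independent, and a match is a description and not a binding site. The only CArG box among the 31 lay in Trpc6, 122 bases before the start. Shown 5′ to 3′ on the strand of the gene are Trpc6 (chr9:8543892-8544141, plus), which carries that box, and the channel partners Kcnj8 (chr6:142571615-142571864, minus) and Abcc9 (chr6:142702275-142702524, minus), which lie next to each other on chromosome 6. Capitals mark the matches. Abcc9 is a gene of the rule and not among the 31 windows. Its capitals hold TGGGAA and, overlapping it, the reverse complement of CATTCC, while Kcnj8 holds no match.
Trpc6: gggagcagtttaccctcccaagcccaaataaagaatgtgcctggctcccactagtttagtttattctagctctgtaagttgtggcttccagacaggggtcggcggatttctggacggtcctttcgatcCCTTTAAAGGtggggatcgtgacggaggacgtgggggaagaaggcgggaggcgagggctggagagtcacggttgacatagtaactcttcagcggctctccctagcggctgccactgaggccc
Kcnj8: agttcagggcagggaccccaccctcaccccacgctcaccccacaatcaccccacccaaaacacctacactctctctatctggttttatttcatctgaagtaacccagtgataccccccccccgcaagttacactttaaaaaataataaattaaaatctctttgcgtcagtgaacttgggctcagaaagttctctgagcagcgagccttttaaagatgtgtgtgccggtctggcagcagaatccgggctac
Abcc9: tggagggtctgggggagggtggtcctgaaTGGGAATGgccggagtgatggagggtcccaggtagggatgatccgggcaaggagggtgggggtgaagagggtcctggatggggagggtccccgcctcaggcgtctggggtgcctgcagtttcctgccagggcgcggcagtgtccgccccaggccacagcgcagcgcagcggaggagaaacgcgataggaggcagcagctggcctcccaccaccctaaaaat

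Set against smooth muscle nuclei, of which there were 22 in the cKO library and 55 in the control, pericyte nuclei had less of the contractile programme. Of 4172 genes with 20 or more UMIs over both classes in each library, 69 were at least 4-fold higher in pericyte nuclei in both libraries, which is 1.65%, and 91 were at least 4-fold lower, which is 2.18%. Of 16 measured contractile genes, 12 were 4-fold lower in both libraries. Tagln helped to choose the smooth muscle nuclei, and without it the count was 11 of 15. Since both classes were chosen by mural and contractile genes, this comparison describes the classes. Myocd, the coactivator that drives contractile genes with serum response factor, had 1 and 8 UMIs in pericyte nuclei and 79 and 261 UMIs in smooth muscle nuclei. Actg2, the gamma smooth muscle actin, had no UMI in pericyte nuclei and 23 and 295 UMIs in smooth muscle nuclei.

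The list of ion channel and calcium genes was split. Of 18 genes, 4 were at least 4-fold higher in pericyte nuclei in both libraries, against 1.65% of all genes. Another 4 were at least 4-fold lower in both libraries, against 2.18% of all genes. Among the higher were Kcnj8, given above, the potassium channel gene Kcnq5, with log2 ratios over smooth muscle nuclei of 2.69 in the cKO library and 2.33 in the control, and the chloride channel gene Ano1, with 2.27 and 2.46. In the cKO library Kcnj8 had 20 UMIs in pericyte and 0 in smooth muscle nuclei. The lower bound of its log2 ratio there was 0.97, below 4-fold, so its place among the higher genes rests on that 0. The lower were Ryr2, Kcnma1, Kcnab1 and Cacnb2. Ryr2, the ryanodine receptor of the sarcoplasmic reticulum, had 9.75 CPM in cKO and 25.3 CPM in control pericyte nuclei, against 876 and 1222 CPM in smooth muscle nuclei. Kcnma1, the large-conductance calcium-activated potassium channel, had 4 and 20 UMIs, against 130 and 1075 UMIs. Itga8, an integrin subunit, had 19.5 and 39.1 CPM, against 1064 and 743 CPM. Hpse2 and Col19a1 stood lowest together with them, and Myh11 and Acta2 also rank here because the rule places them.

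Higher in pericyte than in smooth muscle nuclei were Lin7a, Agtr1a and Cdh2, given above, and genes that smooth muscle nuclei held at lower levels. Pcdh19, a protocadherin, had 325 CPM in cKO and 324 CPM in control pericyte nuclei, against 16.4 and 16.8 CPM in smooth muscle nuclei. The 16.4 CPM came from 2 UMIs. In fibroblast nuclei Pcdh19 had 267 and 205 CPM, nearer its pericyte level. C7, a complement component, had 442 and 246 CPM, against 40.9 and 21.0 CPM in smooth muscle nuclei. Its level in fibroblast nuclei was 1250 and 1188 CPM, and 1 nucleus held 40 of its 136 cKO UMIs and 1 nucleus 42 of its 107 control UMIs, whose part in the result was not tested. Of 13 measured interstitial matrix genes, 1 was 4-fold higher in both libraries, against 1.65% of all genes. It was Timp3, an inhibitor of matrix metalloproteinases, with 881 and 1053 CPM, against 147 and 147 CPM in smooth muscle nuclei.

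**Figure D3:**
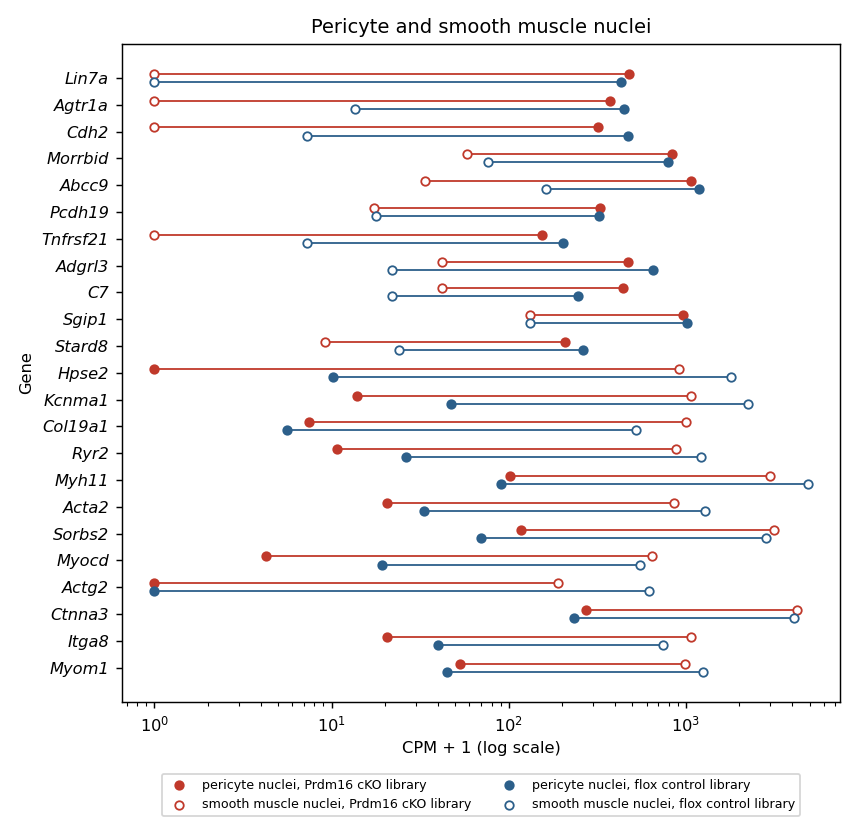
CPM + 1 on a log scale for genes that differ most between pericyte nuclei (filled) and smooth muscle nuclei (open), with the Prdm16 cKO library above the flox control library for each gene. The upper genes, from Lin7a to Stard8, lie right in pericyte nuclei, and the lower genes, including Myocd with 1 and 8 UMIs in pericyte nuclei, lie right in smooth muscle nuclei.

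Between genotypes, 3136 genes had 50 or more UMIs over the pericyte nuclei of both libraries. Of these, 65 were at least 2-fold higher in cKO pericyte nuclei, which is 2.07%, and 70 were at least 2-fold lower, which is 2.23%. The median log2 ratio over the 3136 genes was -0.00, and 1555 of them were above 0. Without the nucleus of each library that held most of a gene's UMIs, 46 of the 65 and 64 of the 70 stayed 2-fold. The counts describe a size of difference between 2 libraries, and no test was possible.

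The higher genes were led by those that make fatty acids and the reducing power for it. Acly, the ATP citrate lyase that supplies acetyl-CoA, had 166 UMIs in cKO and 75 in control members, or 539.6 and 172 CPM, a log2 ratio of 1.65 (1.24 to 2.06). Fasn, fatty acid synthase, had 106 UMIs in cKO and 53 in control members, or 345 and 122 CPM. Me1, the malic enzyme that makes NADPH, had 1313 and 439 CPM, a log2 ratio of 1.58 (1.33 to 1.84). Tkt, transketolase of the pentose phosphate pathway, had 592 and 140.2 CPM, with 68 of its 182 cKO UMIs in 1 nucleus, and a log2 ratio of 1.65 without each library's highest nucleus against 2.08 with it. Nrg4, a secreted neuregulin of adipocytes, had 1226 and 409 CPM, with 131 of 377 cKO UMIs in 1 nucleus. Pygl and Gbe1, which break down and branch glycogen, had log2 ratios of 1.81 and 1.25.

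The same direction was seen outside pericyte nuclei. Of the 12 named genes that were higher, 11 were also higher in the cKO library in all 5 other classes, and 2 were 2-fold higher in none of them. All 12 of the measured fatty acid synthesis genes were above 0 in pericyte nuclei, with 7 at least 2-fold higher, against 2.07% of all genes, and a median log2 ratio of 1.20. The medians of this list in the other classes ran from 0.71 in adipocyte nuclei to 1.26 in smooth muscle nuclei. Adipocyte transcripts were present in pericyte nuclei of both libraries. The 20 adipocyte markers stood at 44.3% of their adipocyte level in cKO pericyte nuclei and at 35.2% in control pericyte nuclei. Their summed level in vascular endothelial nuclei was 21063 CPM in the cKO library and 14798 CPM in the control, close to the 21219 and 14413 CPM of pericyte nuclei. On 8 markers outside the lipogenic and Npr3 groups the values were 35.1% and 32.1%. Subtraction of an adipocyte profile was part of the rule that named the genes, so that they kept their direction under it follows from the rule. The part of carry-over in these ratios was not tested.

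The exception among the higher genes was Pcdh9, a protocadherin. It had 80 UMIs in 7 cKO members and 34 UMIs in 4 control members, a log2 ratio of 1.73 (1.14 to 2.36). In vascular endothelial nuclei the ratio was -1.17 (-1.52 to -0.84). With members held to no UMI of Flt1, Pdgfra or Mrc1 and at most 1 of Myh11 and Acta2, the Pcdh9 ratio in pericyte nuclei was -2.62.

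Several of the lower genes had most of their control UMIs in a single nucleus. Csmd1, a complement-regulatory membrane protein gene, had 25 UMIs in cKO and 462 in control members, and 445 of the 462 lay in 1 nucleus. Without the highest nucleus of each library its log2 ratio was 0.11, against -3.71 with them. Dclk1, a microtubule-associated kinase, had 95 of 141 control UMIs in 1 nucleus, and its ratio was -1.71 without the highest nuclei, against -2.12 with them. Gpr39, a zinc-sensing receptor, had 78 of 116 in 1 nucleus, with ratios of -0.63 and -1.71. Prkcb, a protein kinase C, had 34 of 66, with ratios of -0.92 and -1.74. In all, 5 of the 12 named lower genes had at least 50% of their control UMIs in 1 nucleus.

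In the other 7 named lower genes no nucleus held 50% of the control UMIs. Eln, the elastin gene, had 17 UMIs in 9 cKO members and 85 UMIs in 29 control members, or 55.3 and 195 CPM, a log2 ratio of -1.82 (-2.67 to -1.06). Actn1, alpha-actinin 1, had 12 UMIs in 11 cKO members and 60 in 35 control members, a log2 ratio of -1.82 (-2.85 to -0.91). Prkch, another protein kinase C, had 7 UMIs in 7 cKO members and 53 in 21 control members, a log2 ratio of -2.42 (-3.80 to -1.28). Sema6a, a transmembrane semaphorin, and Rbfox1, a splicing regulator, had log2 ratios of -2.11 and -2.86. Unc5c, a netrin receptor, had 1 UMI in cKO and 80 in 10 control members, with 25 of the 80 in 1 nucleus, a log2 ratio of -5.82 (-11.1 to -3.30). F13a1, the factor XIII A subunit made by macrophages, had 22 and 107 UMIs, with 34 of the control UMIs in 1 nucleus. None of the 12 was lower in all 5 other classes, and 11 were 2-fold lower in no other class.

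Marker sums of several other cell types were lower in cKO than in control pericyte nuclei, and those of some types were higher. The 10 macrophage markers summed to 523 CPM in cKO and 1133 CPM in control pericyte nuclei. Of the 4 with sufficient depth, 3 (F13a1, Ptprc and Rbpj) were 2-fold lower, against 2.23% of all genes. F13a1 is also among the named lower genes. Mrc1, the macrophage gene of the rule, had 6 UMIs in cKO and 29 in control members. The rule holds Mrc1, Flt1 and Pdgfra to at most 2 UMIs in sum per member, so this count is bounded by the choice of members. The 10 mesothelial markers summed to 439 and 568 CPM, with Muc16 at 35.8 and 117 CPM. Fibroblast markers summed to 1557 and 1363 CPM, and vascular endothelial markers to 208 and 308 CPM. Their part in the lower genes was not tested.

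**Figure D4:**
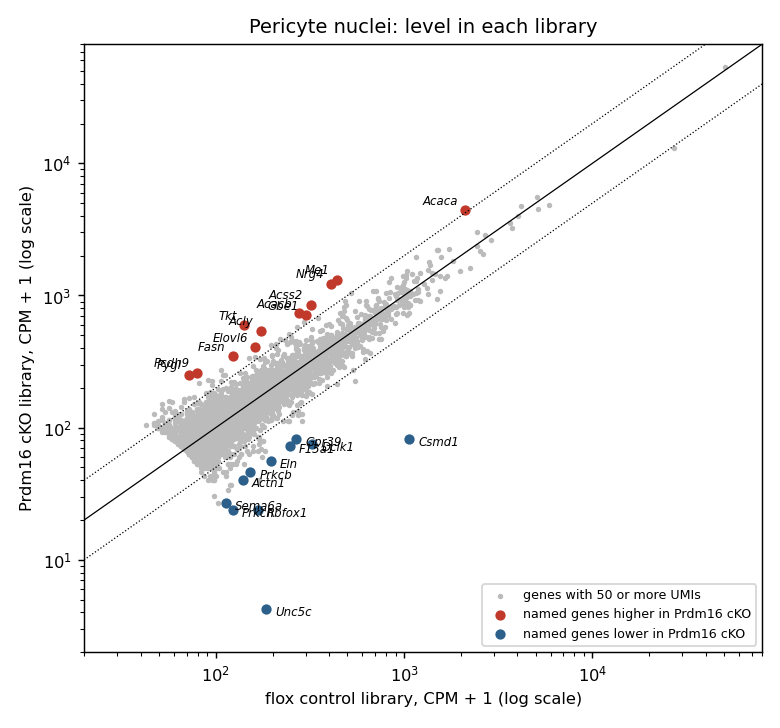
CPM + 1 in the Prdm16 cKO library (vertical) against the flox control library (horizontal) for 3136 genes in pericyte nuclei, both axes on a log scale, with dotted lines at 2-fold. The 12 named higher genes lie above the upper line around Acly and Me1, and Csmd1 lies far right of the lower line with 462 control UMIs, 445 of them in 1 nucleus.

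Most measured clock genes had ratios above 0. Of 7 measured members of the clock list, 6 were above 0, against 1555 of all 3136 genes, and 2 were at least 2-fold higher, against 2.07% of all genes. The median log2 ratio was 0.89, against -0.00 over all genes. Hlf and Tef, transcription factors of the clock output, had log2 ratios of 1.44 (0.83 to 2.07) and 1.08 (0.63 to 1.54). Per2 and Per3, repressors of the clock loop, had 0.95 (0.24 to 1.68) and 0.89 (0.34 to 1.44). Clock, an activator of the loop, had 113.8 CPM in cKO and 181.6 CPM in control members, a log2 ratio of -0.67 (-1.29 to -0.08). Medians of this list in the other classes ran from 0.30 to 0.41, and the difference between classes was not tested. The medians are not over the same genes. Measured members numbered 7 in pericyte, 5 in smooth muscle, 15 in vascular endothelial, 17 in lymphocyte, and 18 in fibroblast and in adipocyte nuclei. The time of day at which each tissue was taken is not given in the sources used here.

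Matrix and Notch genes lay on the other side of 0. Of 12 measured interstitial matrix genes, 1 was above 0, against 1555 of all 3136 genes, and 2 were at least 2-fold lower, against 2.23% of all genes. The median log2 ratio was -0.33. Postn, periostin, had 111 CPM in cKO and 244 CPM in control members, a log2 ratio of -1.14 (-1.74 to -0.57), and Dcn, decorin, had 371 and 333 CPM. The median of this list was 0.04 in the 24 cKO and 40 control members with less adipocyte RNA. Of 5 measured Notch pathway genes, none was above 0, against 1555 of all 3136 genes, and the median was -0.29. Notch3, which helped to choose the members, had a log2 ratio of -0.34, so its value is not free of the rule. Rbpj, the DNA-binding effector of Notch, had 211 and 439 CPM, a log2 ratio of -1.06 (-1.48 to -0.64), and is also on the macrophage list. Maml2, a coactivator of the same complex, had 936 and 1494 CPM, a log2 ratio of -0.67 (-0.88 to -0.47).

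Lists of mural function held few genes past 2-fold. Of 15 measured ion channel and calcium genes, 5 were above 0, none was 2-fold different and the median log2 ratio was -0.31. Of 16 measured basement membrane and integrin genes, 11 were above 0, none was 2-fold different and the median was 0.27. Lama2, a laminin chain, had 543 and 366 CPM, a log2 ratio of 0.57 (0.25 to 0.89), and Col4a1, a chain of collagen IV, had 332 and 423 CPM, a log2 ratio of -0.35 (-0.71 to 0.01). Of 19 measured mural transcription factors, 9 were above 0 and none was 2-fold different. Of 8 measured contractile genes, Synpo2, an actin-binding protein gene, was 2-fold lower, with 224 and 545 CPM. The list of immediate early genes had no member with 50 UMIs.

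**Figure D5:**
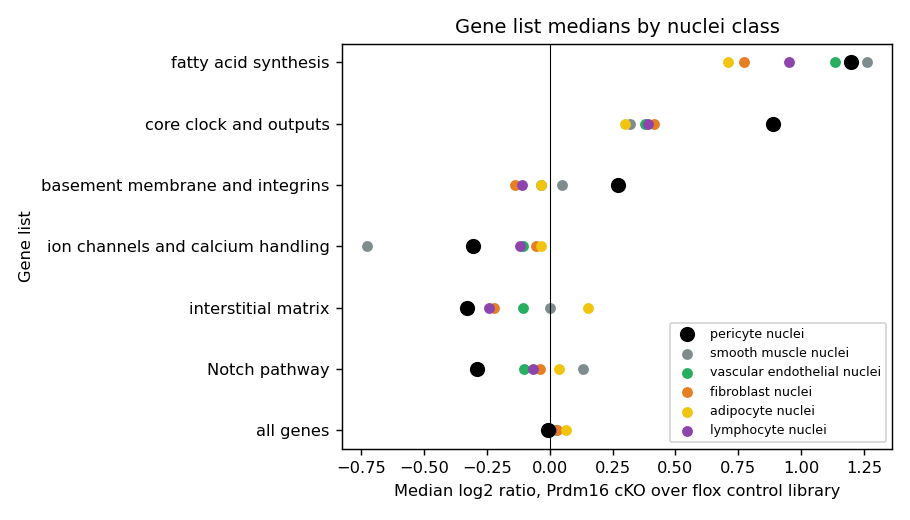
Median log2 ratio of the Prdm16 cKO library over the flox control library for 6 gene lists and all genes, in pericyte nuclei (black) and 5 other classes. In pericyte nuclei fatty acid synthesis stands at 1.20 among the other classes, the clock list at 0.89 right of them, and the matrix and Notch lists at -0.33 and -0.29. Each median covers only the genes measured in its class, so the genes differ between classes (clock list: 7 in pericyte nuclei, 5 to 18 in the others).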

How the data were processed

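Nuclei were profiled with 10x Genomics 3' chemistry v3.1, per the labels' protocols. The authors deposited matrices of whole-number UMI counts per gene and nucleus, not normalised, made with Cell Ranger 6.1.2 on mm10, per the submitters' processing notes. Whether intronic reads were counted, and how strand was treated, is not given in the sources used here. Overlapping and antisense genes are therefore uncertain.

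Raw counts were summed per nuclei class and library (Python 3.11.15, scipy 1.17.1) and scaled to CPM with exact Poisson intervals. Ratios have exact conditional binomial intervals and shares have Clopper-Pearson intervals. Intervals and floors cover counting error only. With 1 library per genotype no test was run. Genes with 50 or more UMIs over both libraries were compared. Comparison classes were chosen by marker counts, and the 36 cKO and 81 control nuclei that met 2 classes were left out. The ratio calculation was tested on simulated data.

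Named genes followed fixed rules: the 25 highest over all other nuclei, the 12 highest and 12 lowest between genotypes by the interval bound nearest 0 among genes past 1.5-fold after subtraction of the adipocyte profile, the 12 highest and 12 lowest against smooth muscle, the 2 highest and 2 lowest of each list, and the 8 most like Agtr1a. Gene models named Gm or Rik were left out of the first 2 rankings. The members, lists and rules were chosen with earlier results of these data known. Chosen after values were seen were a floor of 3 counts in the subtracted ratios, which touches 6 of the 24 genotype genes, the limits of 10 UMIs and 30 per 10,000 for another type's markers, the 7 genes used to compare members, the promoters and motifs shown, and 3 further alternatives. Per2, Per3, Timp3, Kcnq5, Ano1, Kcnab1, Cacnb2, Gucy1a1, Agtr1b, Mrc1 and the markers named in the label check fall outside these rules and were chosen after their values were seen.

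Doublets were not removed in the main values. The automatic threshold of Scrublet (scanpy 1.11.5) marked 0 cKO and 449 control nuclei, so it did not work in the cKO library. As an alternative, the 495 cKO and 1079 control nuclei with the highest scores, 0.8% per 1000 nuclei, were removed. TMM factors came from edgeR 4.0.16. Positions are 1-based, from GENCODE M21 (GRCm38). Some named genes are counted in these results but not reported here one by one.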

Additional observations from a re-analysis of the deposited data

Results flagged for a closer look

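For each of the 80 genes described, the log2 ratio of the cKO library over the control in pericyte nuclei was set beside the ratio in 5 other classes. Opposite signs, with both counting intervals off 0, were seen for 15 genes in 20 comparisons. Part of the 80 genes were chosen by the size of their ratio in pericyte nuclei. The same count was not made over all measured genes, so whether 15 is many cannot be told. The differences between classes were not tested, since each genotype has 1 library, and the number of comparisons is large.

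Pcdh9 had a ratio of 1.73 in pericyte nuclei, against -1.17 in vascular endothelial and -0.32 in fibroblast nuclei. Gucy1b1 had 0.50 in pericyte nuclei, against -0.98 in fibroblast and -1.20 in lymphocyte nuclei. Lama2 had 0.57, against -0.08 in fibroblast nuclei.

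The other 12 were lower in cKO pericyte nuclei. Against adipocyte nuclei, Cdh2 had -0.56 in pericyte and 0.92 in adipocyte nuclei, and Csmd1 had -3.71 and 0.71, with 445 of its 462 control pericyte UMIs in 1 nucleus. Postn had -1.14 in pericyte and 0.49 in adipocyte nuclei, Prkcb -1.74 and 0.31, Kcnq5 -0.37 and 0.20, and Rbpj -1.06 and 0.08. Unc5c had -5.82 in pericyte nuclei, from 1 cKO UMI, against 0.50 in adipocyte and 1.44 in lymphocyte nuclei. Prdm16 had -2.96 in pericyte nuclei, also from 1 cKO UMI, against 0.30 in adipocyte and 1.08 in lymphocyte nuclei.

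Dclk1 had -2.12 in pericyte and 0.55 in lymphocyte nuclei, and Kcnb2 had -1.18 in pericyte and 0.69 in fibroblast nuclei. Eln had -1.82 in pericyte and 0.56 in smooth muscle nuclei. Notch3, a gene of the membership rule, had -0.34 in pericyte nuclei, against 0.58 in smooth muscle and 1.67 in fibroblast nuclei.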

How the results depend on the processing

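No paired analysis was possible because each genotype has 1 library, and no replicate could be left out. The Agtr1a ratio ran from -0.45 to -0.08 over 11 alternatives. TMM scaling, a higher depth floor, members with an Abcc9 UMI and removal of the highest doublet scores moved neither count of 2-fold genes by over 1.5 times. The fatty acid synthesis median ran from 0.63 to 2.32 and the clock median from 0.60 to 1.31. The counts of genes 2-fold higher and lower were 37 and 44 in the members with less adipocyte RNA, 27 and 43 at 16 per 10,000, and 33 and 46 under the stricter exclusion of other types. These settings hold fewer nuclei and measure fewer genes. They were 275 and 243 after subtraction of the adipocyte profile, where the cause was not tested. With lower count filters they were 268 and 296 at 20 UMIs, and 1522 and 1410 at 1 UMI in each library, which let in genes of low count. Under the stricter exclusion the pericyte share was 0.381% in the cKO library and 0.319% in the control, so its order turned.

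Single genes turned direction in some settings. The stricter exclusion gave -2.62 for Pcdh9 and 1.51 for Csmd1. Without each gene's highest nucleus, a setting chosen after seeing the data, Csmd1 was at 0.11. Gpr39 was at 0.0149 at 16 per 10,000. The cause was not tested. Without its highest nucleus Unc5c has no value, since its lone cKO UMI drops out. At 50 UMIs a gene, counting error alone spans more than 2-fold, and 48 and 80 nuclei limit what can be seen.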
